A study of Mus musculus with 12 samples.

Results

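The fibrillar collagen genes were followed in primary mouse mesangial cells (MMC), the contractile cells that hold the capillaries of the kidney glomerulus together. They are 10 of the 25230 genes in the count files, chosen by name as the genes of the fibril-forming collagens: Col1a1, Col1a2, Col2a1, Col3a1, Col5a1, Col5a2, Col5a3, Col11a1, Col11a2 and Col27a1. No expression value was used to choose them. All 10 genes had reads in all 12 libraries.

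MMC came from wild-type mice (WT) or from mice of the lncMGC-KO5 line (KO), in which Cas9 and a pair of guides around the transcription start site of the long non-coding RNA lncMGC had been injected into C57BL/6J embryos. WT-SD and KO-SD were serum-depleted, WT-TGF and KO-TGF received TGF-β at 10 ng/ml, and all 4 groups carry the label 24 h and 3 libraries each. The cells were grown out of pooled glomeruli collected by sieving, in RPMI medium with fetal bovine serum, and KO stands for 1 mutant line. The study calls the libraries independent samples but the text used here does not tie them to mice or cultures, so p-values measure the spread between these libraries, and the genotype and the culture it was measured in cannot be told apart. lncMGC is not among the genes counted and the deletion was not checked here: KO means the libraries labelled so.

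Fibrillar collagens are made as procollagen chains that fold into triple helices in the endoplasmic reticulum, are trimmed outside the cell and then pack into fibrils. Types I and III form the bulk of most interstitial fibrils, types V and XI are minor chains that start fibrils and limit their width, type II belongs to cartilage, and type XXVII is a short-helix member of the family. In the glomerulus the mesangial matrix normally holds little fibrillar collagen, and its deposition is a mark of glomerulosclerosis, in which TGF-β is a known driver.

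The libraries held between 19898050 and 22827706 counts on genes, and counting error is therefore small for all members but Col11a2 and Col27a1, which had between 66 and 369 counts a library. Expression is given as CPM, counts relative to a library size scaled by the trimmed mean of M-values (TMM), with the SD between 3 libraries. Of the 8 mesangial and smooth muscle markers listed, 8 were over 1 CPM in WT-SD and WT-TGF, 6 in KO-SD and 5 in KO-TGF. Desmin (Des) was at 7.67 CPM in WT-SD and at 0.529 CPM in KO-SD, whereas smooth muscle actin (Acta2) stood at 1567 and 3249 CPM. Endothelial markers summed to at most 1.014 CPM in any library, and summed podocyte, tubular and macrophage markers were each lower with SD in KO than in WT (at most 227, 22.0 and 2.22 CPM against at least 459, 72.0 and 24.2 CPM). The part of these cells in the differences between the genotypes was not tested.

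By RefSeq on GRCm38.p6, the assembly of mm10, Col1a1 lies at chr11:94936224-94953042 and Col1a2 at chr6:4505618-4541543. Col3a1 (chr1:45311538-45349706, plus strand) and Col5a2 (chr1:45374331-45503282, minus strand) are neighbors that end toward each other, with 24624 bases between them. Col5a1 lies at chr2:27886381-28039510, Col5a3 at chr9:20770050-20815117, Col11a1 at chr3:114030479-114220756 and Col11a2 at chr17:34038919-34066684. Col2a1 lies at chr15:97975602-98004724. Col27a1 (chr4:63214009-63334991) is the only member with another gene of the count files inside it, the microRNA gene Mir455 in an intron. The members have between 51 and 67 exons in the transcripts linked to RefSeq, whose joined lengths of 5104 to 8406 bases were used for levels per length.

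Promoter windows of 250 bases before to 50 bases after a RefSeq start were at hand for 7 members, Col3a1, Col5a1, Col11a1, Col27a1, Col1a2, Col5a3 and Col11a2. Shown are those of Col3a1, Col1a2 and Col11a1, which set the genotypes apart, and of Col5a1 and Col5a3, the genes of the type V chains that rose most with TGF-β. Capitals mark matches, on either strand, to the TATA box (TATAAA), the CCAAT box (CCAAT), the GC box (GGGCGG) and the core of the Smad binding element (CAGAC), so a match on the other strand appears as the reverse complement.
Col3a1, chr1:45311288-45311587, plus strand: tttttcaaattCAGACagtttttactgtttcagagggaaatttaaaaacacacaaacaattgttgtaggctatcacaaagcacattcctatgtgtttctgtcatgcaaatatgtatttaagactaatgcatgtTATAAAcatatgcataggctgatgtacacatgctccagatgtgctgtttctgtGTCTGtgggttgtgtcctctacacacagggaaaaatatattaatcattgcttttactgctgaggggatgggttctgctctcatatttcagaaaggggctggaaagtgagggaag
Col1a2, chr6:4505368-4505667, plus strand: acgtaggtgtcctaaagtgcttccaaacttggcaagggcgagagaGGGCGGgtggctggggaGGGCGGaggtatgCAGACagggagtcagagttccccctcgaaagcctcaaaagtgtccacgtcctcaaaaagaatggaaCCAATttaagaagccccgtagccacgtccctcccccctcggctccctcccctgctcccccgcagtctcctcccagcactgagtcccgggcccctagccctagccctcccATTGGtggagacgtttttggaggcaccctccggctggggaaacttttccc
Col5a1, chr2:27886175-27886474, plus strand: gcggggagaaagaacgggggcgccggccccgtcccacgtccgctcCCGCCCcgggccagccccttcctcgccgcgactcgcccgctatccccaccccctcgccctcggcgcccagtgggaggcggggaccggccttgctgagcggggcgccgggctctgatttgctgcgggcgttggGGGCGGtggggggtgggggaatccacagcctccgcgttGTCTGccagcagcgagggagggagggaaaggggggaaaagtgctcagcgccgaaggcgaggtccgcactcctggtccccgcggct
Col5a3, chr9:20815018-20815317, minus strand: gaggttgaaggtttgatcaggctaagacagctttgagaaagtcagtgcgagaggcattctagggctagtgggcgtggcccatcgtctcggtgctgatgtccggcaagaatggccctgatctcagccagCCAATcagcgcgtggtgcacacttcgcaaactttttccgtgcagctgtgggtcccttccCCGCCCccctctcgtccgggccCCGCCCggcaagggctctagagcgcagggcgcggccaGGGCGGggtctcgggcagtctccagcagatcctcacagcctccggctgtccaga
Col11a1, chr3:114030290-114030589, plus strand: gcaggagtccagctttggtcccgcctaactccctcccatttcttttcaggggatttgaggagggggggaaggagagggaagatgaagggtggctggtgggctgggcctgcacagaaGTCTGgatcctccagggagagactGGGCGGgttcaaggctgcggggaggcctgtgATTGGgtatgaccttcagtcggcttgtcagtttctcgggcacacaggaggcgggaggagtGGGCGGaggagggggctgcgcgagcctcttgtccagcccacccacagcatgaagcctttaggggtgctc
No match overlapped another. TATAAA was found in 2 of the 7 windows (Col3a1 and Col11a2) and in 13.6% of 32851 promoters of the same length, and CCAAT in 3 of 7 against 37.4%. GGGCGG was found in 6 of 7, all but Col3a1, against 35.7% of all promoters, and CAGAC in 5 of 7 against 49.6%. The Col27a1 window lies at a RefSeq start inside the gene, and without it the counts are 2, 3, 5 and 4 of 6 in the same order. The Col3a1 window was also the one with the least G and C, 37.7%, where the other members ranged from 59.0% to 75.0% and the median of all promoters was 52.7%. These letters describe the windows and were not tested for any factor.

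Of the genes tested, which were those over 1 RPKM (CPM per kb of exon, here over all GENCODE exons and without TMM) in at least 1 library, all 10 members were part. Col27a1 passed this limit only through WT-TGF, where all 3 libraries were over it, and Col11a2 through 5 libraries, 3 of them WT-SD. The other 8 genes passed it in all 12 libraries. Calls are at FDR <5% in the edgeR quasi-likelihood test, adjusted by Benjamini-Hochberg over all 11527 genes tested, in one fit of the 12 libraries.

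In WT-SD the most abundant member per length was Col1a1, with 722 ± 33.1 RPKM (SD, n = 3), then Col1a2 with 529 ± 40.6 and Col5a1 with 189 ± 3.55 RPKM. Col5a2 (117 ± 0.720 RPKM) and Col3a1 (111 ± 6.99 RPKM) did not differ beyond their spread, and Col11a1 followed with 72.0 ± 0.881 RPKM. Col5a3 (10.4 RPKM) and Col2a1 (8.12 RPKM) were far lower, and Col11a2 (1.38 RPKM) and Col27a1 (0.413 RPKM) were the lowest. In KO-SD the order was different: Col1a1 stood at 1678 ± 91.2 RPKM and Col3a1 was next with 976 ± 23.2 RPKM. Col1a2 (317 ± 20.5 RPKM) and Col5a1 (306 ± 12.4 RPKM) did not differ beyond their spread there, and Col11a1 (238 ± 1.13 RPKM) stood above Col5a2 (191 ± 6.04 RPKM). In KO-TGF, the spreads of Col3a1 (1078 ± 10.0 RPKM) and Col5a1 (1067 ± 12 RPKM) overlapped, behind Col1a1 with 2662 ± 51.4 RPKM. Such comparisons between genes depend on the transcript length taken. All GENCODE exons would lengthen Col1a2 from 5348 to 12426 bases and Col3a1 from 5564 to 9816, but Col5a1 only from 8406 to 8490. The near-equal levels named here therefore hold only for the lengths used.

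**Figure D1:**
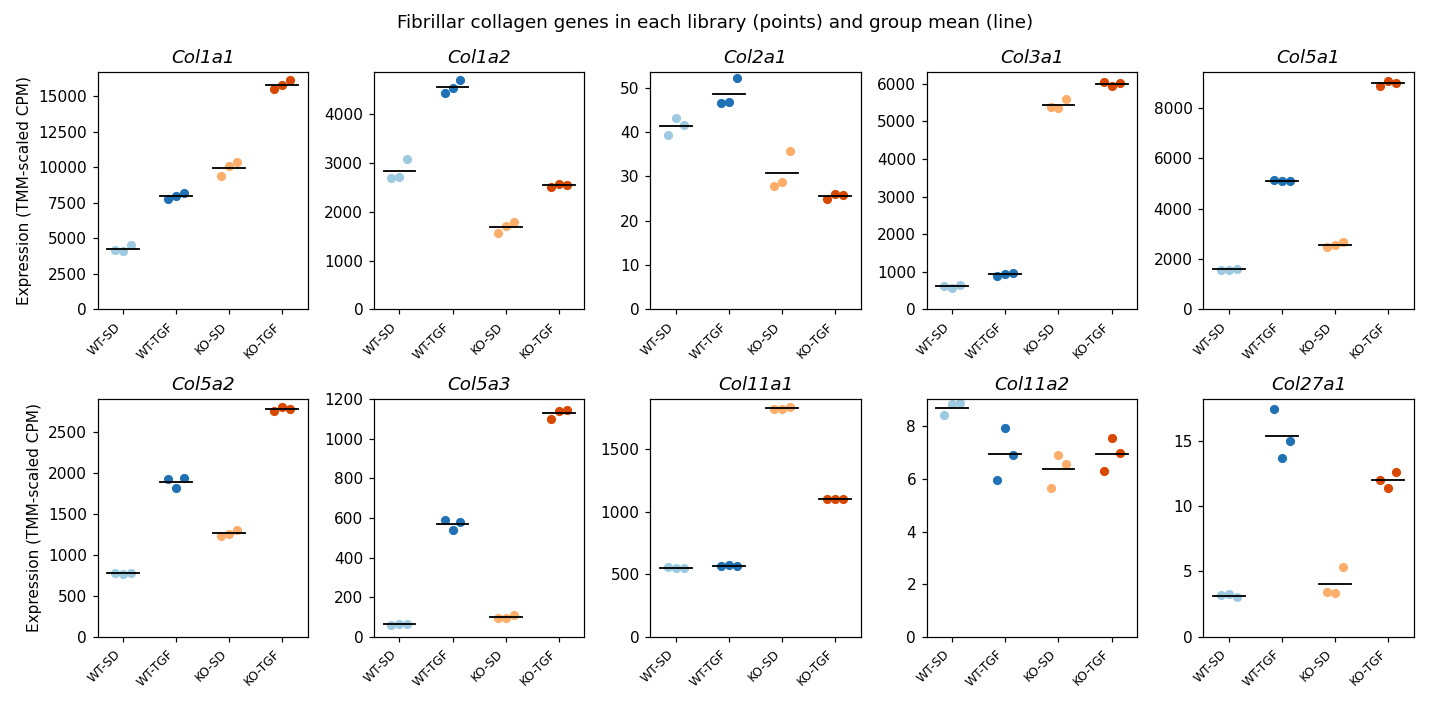
Expression of the 10 fibrillar collagen genes in TMM-scaled CPM (y axis, from 0, a scale for each gene) in the 4 groups (x axis), with 1 point a library and a line at the mean of 3 libraries. Col3a1 and Col11a1 separate by genotype, the type V genes rise with TGF-β in both genotypes, and Col1a1 and Col1a2 lie on opposite sides of WT in KO.

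Together the 10 genes took 1.15% of the counts on genes in the median WT-SD library (1.14% to 1.23%), 2.12% in WT-TGF (2.09% to 2.17%), 2.39% in KO-SD (2.27% to 2.47%) and 3.45% in KO-TGF (3.43% to 3.48%). No library of a group overlapped with another group, and the share of KO-SD exceeded that of TGF-β-treated WT cells. The mean share was 1.81-fold higher with TGF-β in WT, 1.45-fold higher with TGF-β in KO, 2.02-fold higher in KO-SD than in WT-SD and 1.63-fold higher in KO-TGF than in WT-TGF. Each of these had p = 0.1 in the exact two-sided permutation test, the smallest that 3 against 3 libraries can give.

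The first comparison asked what TGF-β did to fibrillar collagen genes in WT MMC. Of the 10 members, 8 rose when WT cells received TGF-β, against 36% of all genes tested, and 1 (Col11a2) fell, against 36.4% of all genes tested. In 4 of the 8 the fold change was >2. Col27a1, which entered the test only through its WT-TGF libraries, is among the 8 and among these 4, so its rise was favored by the filter. The median log2 fold change of the members was 0.79 and that of all genes tested -0.0050. In KO, 7 members were higher in KO-TGF than in KO-SD, against 34.9% of all genes tested, 4 of them with fold change >2, and 2 (Col2a1 and Col11a1) were lower, against 39.1% of all genes tested. There the medians were 0.63 for the members and -0.025 for all genes. With scaling by library size alone, which shifted the median of all genes by -0.16 in WT and -0.20 in KO, 7 members were higher and 2 lower in WT, and 6 higher and 3 lower in KO. The split of all genes then went from 4150 higher and 4197 lower to 2642 and 6054 in WT, and from 4028 and 4511 to 2298 and 6714 in KO. Both comparisons are of bulk RNA, in which more cells of a kind and more RNA per cell cannot be told apart.

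All type V chains rose with TGF-β in both genotypes. Col5a3 encodes the α3(V) chain, the least abundant of the type V chains in most tissues. It had 60.8, 65.5 and 64.4 CPM in the WT-SD libraries and 588, 540 and 581 CPM in the WT-TGF libraries. In KO it had 95.3, 94.9 and 109 CPM with SD and 1098, 1141 and 1146 CPM with TGF-β. The groups did not overlap, and the gene rose 8.96-fold in WT (log2 fold change 3.16, standard error 0.041) and 11.3-fold in KO (3.50, standard error 0.040), with adjusted p = 2.66e-32 and 8.69e-34 (edgeR quasi-likelihood test, Benjamini-Hochberg). Of the members, Col5a3 had the largest change with TGF-β in either genotype.

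Col5a1 encodes the α1(V) chain that is part of every type V trimer. It had 1573, 1569 and 1623 CPM in WT-SD and 5127, 5100 and 5120 CPM in WT-TGF. The KO-SD libraries had 2468, 2574 and 2676 CPM and the KO-TGF libraries 8861, 9058 and 8997 CPM. The 4 groups stood apart, with a rise of 3.22-fold in WT and 3.49-fold in KO. Col5a2, the α2(V) chain, rose 2.45-fold in WT (from 776 ± 4.77 to 1900 ± 64.3 CPM) and 2.20-fold in KO (from 1265 ± 40.004 to 2786 ± 23.7 CPM). Its neighbor on chromosome 1, Col3a1, which encodes the chain of the type III homotrimer, had 617, 577 and 654 CPM in WT-SD and 901, 944 and 964 CPM in WT-TGF, a rise of 1.52-fold (log2 fold change 0.60, standard error 0.030). In KO the same gene rose only 1.10-fold, from 5432 ± 129 to 5996 ± 55.7 CPM (log2 fold change 0.14, standard error 0.029, adjusted p = 5.32e-05, edgeR quasi-likelihood test, Benjamini-Hochberg). Scaling by library size alone turned this last direction, and the fall then passed the threshold (log2 fold change -0.062, adjusted p = 0.0432 in the same test).

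Both chains of type I collagen rose with TGF-β. Col1a1 had 4203, 4139 and 4506 CPM in WT-SD and 7787, 7950 and 8181 CPM in WT-TGF, and it rose 1.86-fold in WT and 1.59-fold in KO. Col1a2 had 2692, 2712 and 3077 CPM in WT-SD and 4425, 4542 and 4709 CPM in WT-TGF, a rise of 1.61-fold, and it rose 1.504-fold in KO. Col27a1 was low but rose 4.86-fold in WT, from 3.18, 3.25 and 3.004 CPM to 17.4, 13.6 and 14.97 CPM, and 2.97-fold in KO, from 3.40, 3.33 and 5.32 CPM to 11.997, 11.3 and 12.6 CPM. No WT-TGF library of these 3 genes overlapped with WT-SD.

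Type XI and type II chains behaved otherwise. Col11a1, the α1(XI) chain, which can also join type V chains outside cartilage, had 559, 550 and 546 CPM in WT-SD and 561, 571 and 563 CPM in WT-TGF. The difference of 0.03 on the log2 scale (standard error 0.021) did not pass the test (adjusted p = 0.138, edgeR quasi-likelihood test, Benjamini-Hochberg), and it passed in 4 of 20 alternatives, in 3 of them upward and with scaling by library size alone downward (-0.12). In KO, Col11a1 had 1817, 1822 and 1834 CPM with SD and 1100, 1101 and 1103 CPM with TGF-β. It fell 1.66-fold (log2 fold change -0.73, standard error 0.020), and each KO-TGF library was below each KO-SD library and above each WT library. Col2a1, the chain of cartilage collagen, rose 1.17-fold in WT (from 41.5 ± 1.91 to 48.5 ± 3.21 CPM) and fell 1.202-fold in KO (from 30.7 ± 4.30 to 25.6 ± 0.569 CPM), and its rise in WT was lost with scaling by library size alone (log2 fold change 0.067, adjusted p = 0.314). Col11a2, a cartilage chain as well, fell 1.25-fold in WT, from 8.71 ± 0.258 to 6.94 ± 0.989 CPM, and this call was lost without WT-TGF replicate 1 (adjusted p = 0.0746). In KO it had 6.37 ± 0.647 CPM with SD and 6.95 ± 0.611 CPM with TGF-β, a log2 difference of 0.13 (standard error 0.115) that did not pass the test (adjusted p = 0.322, edgeR quasi-likelihood test, Benjamini-Hochberg). Of the 6 chondrocyte markers, Sox9, which also acts outside cartilage, was the only one over 1 CPM in any group (14.7 to 22.9 CPM), Col9a1 had no count, and the cartilage markers Acan and Matn1 had at most 2 counts a library.

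**Figure D2:**
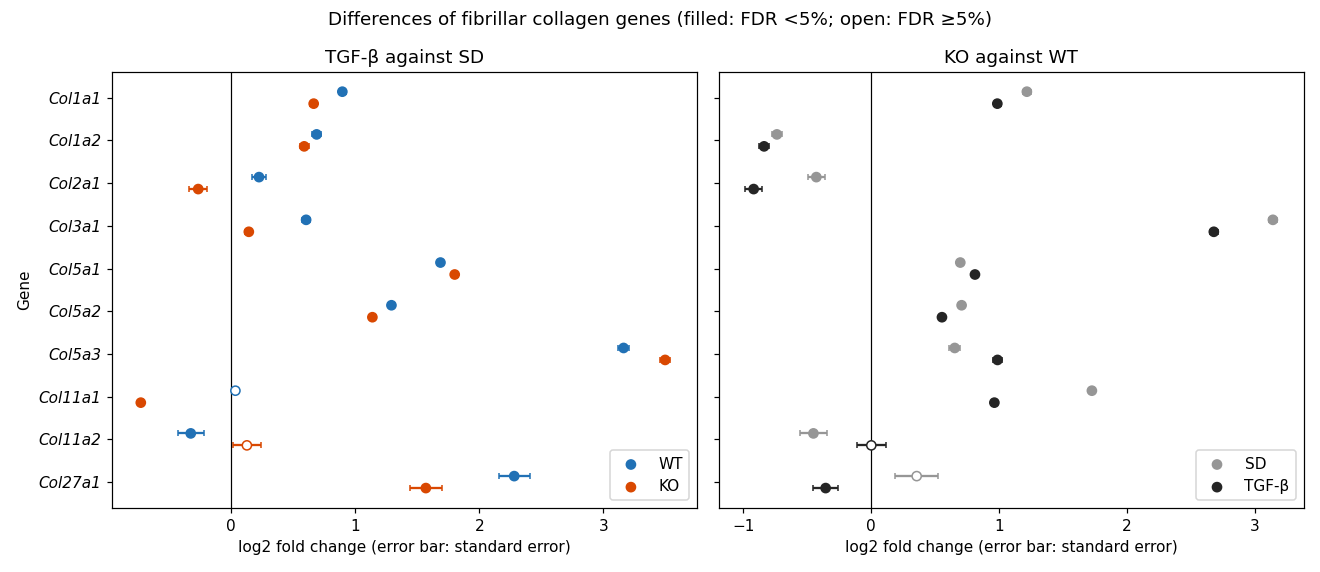
Log2 fold changes of each fibrillar collagen gene (y axis) from the edgeR fit, for TGF-β against SD in each genotype (left) and for KO against WT in each condition (right), with standard errors as bars, filled points for FDR <5% and open points for FDR of 5% or more. Col5a3 lies farthest right with TGF-β, at 3.16 in WT and 3.50 in KO, and Col3a1 farthest right for KO against WT, at 3.14 with SD and 2.68 with TGF-β.

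The second comparison asked how the cells labelled KO differed from WT. In KO-SD, 6 members were higher than in WT-SD, against 30.9% of all genes tested, 3 of them with fold change >2, and 3 were lower, against 25.2% of all genes tested. In KO-TGF, 6 members were higher than in WT-TGF, against 27.2% of all genes tested, 1 of them with fold change >2, and 3 were lower, against 27.8% of all genes tested. The 6 higher genes were Col1a1, Col3a1, Col5a1, Col5a2, Col5a3 and Col11a1 in both conditions, and Col1a2 and Col2a1 were lower in both. The other lower gene was Col11a2 with SD and Col27a1 with TGF-β, and Col27a1 entered the test only through WT-TGF. The median log2 fold change of the members was 0.67 with SD and 0.68 with TGF-β, against 0.019 and -0.0036 for all genes tested. Scaling by library size alone left the members at 6 higher and 3 lower in both conditions, while all genes split into 2445 higher and 4191 lower with SD (3564 and 2908 with TMM) and into 1643 and 5406 with TGF-β (3141 and 3202 with TMM).

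Col3a1 differed most between the genotypes. It had 617, 577 and 654 CPM in WT-SD and 5372, 5344 and 5581 CPM in KO-SD. After TGF-β the WT libraries had 901, 944 and 964 CPM and the KO libraries 6039, 5933 and 6017 CPM. The lowest KO library was above the highest WT library by several fold in both conditions. In the edgeR quasi-likelihood test, with Benjamini-Hochberg adjusted p = 1.92e-34, the gene was 8.82-fold higher in KO-SD (3.14 ± 0.031 as log2 fold change ± standard error). In KO-TGF it was 6.403-fold higher (2.68 ± 0.031), with adjusted p = 5.03e-33 in the same fit. Its neighbor Col5a2 was 1.63-fold and 1.47-fold higher in KO, so the genes on either side of the 24624 bases moved by different amounts.

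The sum of the fibroblast markers, though not each marker, was higher in KO than in WT, as Col3a1 was. The summed level of the 6 fibroblast markers was 12.7 to 14.4 CPM in WT-SD, 60.0 to 66.4 CPM in KO-SD, 5.04 to 6.27 CPM in WT-TGF and 21.6 to 22.6 CPM in KO-TGF. Of the 6, only 2 to 3 were over 1 CPM in a group and decorin (Dcn) made up most of the sum in KO, with 59.3 CPM in KO-SD against 9.83 CPM in WT-SD. Pdgfra, a defining fibroblast receptor, went the other way (3.54 CPM in WT-SD against 1.97 in KO-SD), and Lum and Cd34 had at most 5 counts in any library. Decorin and the fibroblast sum were lower with TGF-β in both genotypes. With TMM, Col3a1 was higher in both, though only 1.10-fold in KO, where scaling by library size alone made it lower. The part of fibroblasts in the Col3a1 difference was not tested.

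The type I chains lay on opposite sides. Col1a1 had 9351, 10107 and 10400 CPM in KO-SD and 15498, 15750 and 16105 CPM in KO-TGF, above all WT libraries of the same treatment. It was 2.32-fold higher in KO-SD (1.22 on the log2 scale, standard error 0.029) and 1.98-fold higher in KO-TGF (0.99, standard error 0.029). Col1a2, the partner chain of the type I heterotrimer, had 1576, 1713 and 1794 CPM in KO-SD and 2515, 2577 and 2553 CPM in KO-TGF. All of these were below the WT libraries of the same treatment, and the KO-TGF libraries were also below those of WT-SD. In the edgeR quasi-likelihood test with Benjamini-Hochberg adjusted p = 5.88e-17, Col1a2 was 1.67-fold lower in KO-SD (-0.74 ± 0.037 as log2 fold change ± standard error). In KO-TGF it was 1.79-fold lower (-0.84 ± 0.037), with adjusted p = 2.17e-18 in the same fit.

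Col11a1 was 3.31-fold higher in KO-SD than in WT-SD (log2 fold change 1.72, standard error 0.021) and 1.95-fold higher in KO-TGF than in WT-TGF (0.96, standard error 0.021). The type V genes were also higher in KO: Col5a1 1.62-fold with SD and 1.75-fold with TGF-β, and Col5a3 1.57-fold and 1.98-fold. Col2a1 was 1.35-fold lower in KO-SD and 1.89-fold lower in KO-TGF, where its libraries of 25.0 to 26.0 CPM lay under the 46.6 to 52.2 CPM of WT-TGF. Col11a2 was 1.37-fold lower in KO-SD, and in KO-TGF it had 6.95 ± 0.611 CPM against 6.94 ± 0.989 CPM in WT-TGF, with a log2 difference of -0.00042 whose standard error was 0.113. Col27a1 was 1.28-fold lower in KO-TGF, whereas in KO-SD its log2 difference of 0.35 (standard error 0.166) missed the threshold with adjusted p = 0.0701 (edgeR quasi-likelihood test, Benjamini-Hochberg). KO-SD replicate 3 had the highest Col27a1 value of the SD libraries, and over the 19 alternatives the adjusted p of this difference ran from 0.0165 to 0.656 and passed the threshold in 6.

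The response to TGF-β itself was compared between the genotypes as the interaction, the log2 response in KO minus that in WT. It was higher in KO for 3 members, Col5a1, Col5a3 and Col11a2, against 8.68% of all genes tested, and lower in KO for 6, against 16.6% of all genes tested. With scaling by library size alone it was higher for 2 and lower for 7, and all genes went from 1000 higher and 1915 lower to 686 and 2647. The size ranged from -0.76 for Col11a1 to 0.45 for Col11a2, so no member's response differed by a fold >2 between the genotypes. Col27a1, one of the 6 with a lower response, entered the test only through WT-TGF. For Col1a2 the difference was -0.10 (standard error 0.052) with adjusted p = 0.172 (edgeR quasi-likelihood test, Benjamini-Hochberg), and 5 of 19 alternatives put it past the threshold. The comparisons of KO-SD and of KO-TGF with their controls use the same libraries as these responses.

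Ratios of chains within a library do not depend on library size. Counts per kb of exon gave a Col1a1 to Col1a2 ratio of 1.32 to 1.41 in the 3 WT-SD libraries and 1.57 to 1.59 in WT-TGF. In KO-SD the ratio was 5.23 to 5.35 and in KO-TGF 5.51 to 5.69. The genotypes thus stood apart by 3.87-fold with SD and 3.54-fold with TGF-β, and TGF-β moved the ratio by 1.15-fold in WT and 1.05-fold in KO. The level of this ratio depends on the transcript length taken, and with all GENCODE exons of each gene its medians were 2.89 (SD) and 3.31 (TGF-β) in WT and 11.2 and 11.7 in KO, while the differences between groups stayed the same by construction. Each of these differences had exact permutation p = 0.1, the smallest possible, and adjusted p = 0.111 over 20 tests of ratios.

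Col3a1 to Col1a1 was 0.148 to 0.157 in WT-SD and 0.564 to 0.612 in KO-SD, a 3.80-fold difference, and it was lower with TGF-β in both genotypes, at 0.123 to 0.127 in WT-TGF and 0.398 to 0.415 in KO-TGF. The type V ratios overlapped between WT-SD and KO-SD. Col5a1 to Col5a2 was 1.60 to 1.64 in WT-SD and 1.58 to 1.61 in KO-SD (log2 difference -0.010, exact permutation p = 0.6), and the sign turned without WT-SD replicate 3 (0.00098). Col5a3 to Col5a1 was 0.0530 to 0.0573 in WT-SD and 0.0507 to 0.0561 in KO-SD (log2 difference -0.045, exact permutation p = 0.5). With TGF-β both type V ratios were higher than with SD in each genotype, to 2.08 to 2.20 and 2.53 to 2.54 for Col5a1 to Col5a2 and to 0.145 to 0.158 and 0.170 to 0.175 for Col5a3 to Col5a1 in WT and KO. Col11a1 to Col5a1 went the other way, from 0.369 to 0.390 in WT-SD down to 0.120 to 0.123 in WT-TGF and from 0.751 to 0.807 in KO-SD down to 0.133 to 0.136 in KO-TGF.

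**Figure D3:**
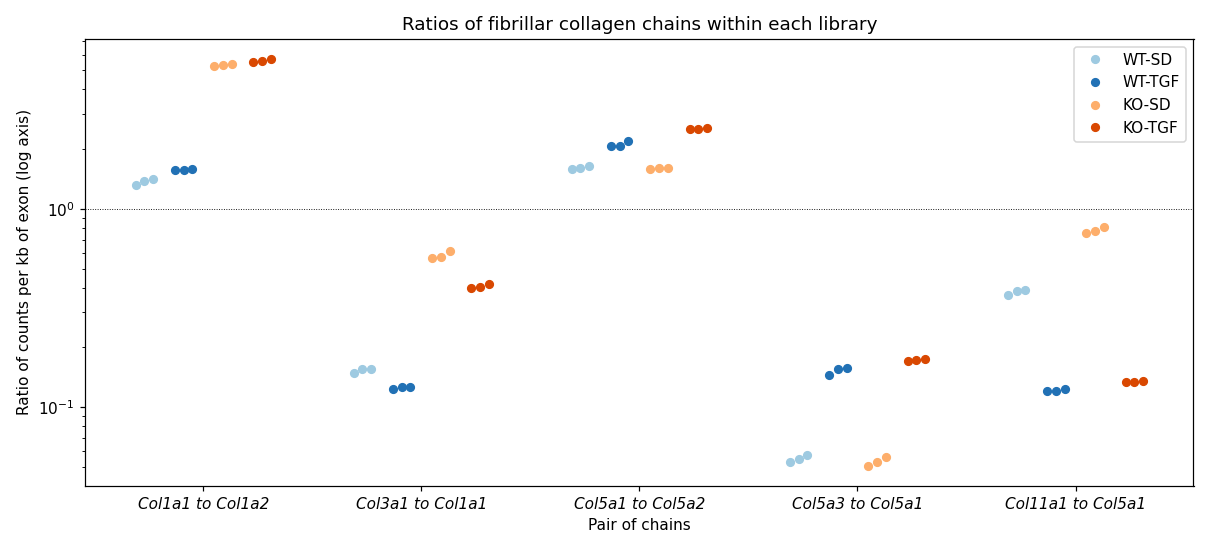
Ratio of counts per kb of exon of 2 fibrillar collagen chains (y axis, log scale) in each library, drawn within a group in order of size, for 5 pairs of chains (x axis). Col1a1 to Col1a2 lies between 1.32 and 1.59 in WT and between 5.23 and 5.69 in KO, and Col5a1 to Col5a2 overlaps between WT-SD and KO-SD.

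As shares of the 10 genes' counts per kb, Col1a1 held between 39.1% (WT-TGF) and 44.98% (KO-SD) on average in every group. Col1a2 held 30.0% ± 0.8997 (SD, n = 3) in WT-SD and 8.49% ± 0.217 in KO-SD. Col3a1 held 6.29% ± 0.190 in WT-SD and 26.2% ± 0.712 in KO-SD. It thus came after Col1a1, Col1a2 and Col5a1 in WT-SD and next to Col1a1 in KO-SD. In WT-SD its range (6.08% to 6.45%) overlapped with that of Col5a2 (6.35% to 6.825%). With TGF-β, Col5a1 came to 17.7% ± 0.349 in WT and 17.7% ± 0.151 in KO, from 10.7% ± 0.298 and 8.20% ± 0.0189 with SD. Col2a1, Col11a2 and Col27a1 together were under 1% in each group. Like the RPKM values, these shares depend on the transcript length taken.

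**Figure D4:**
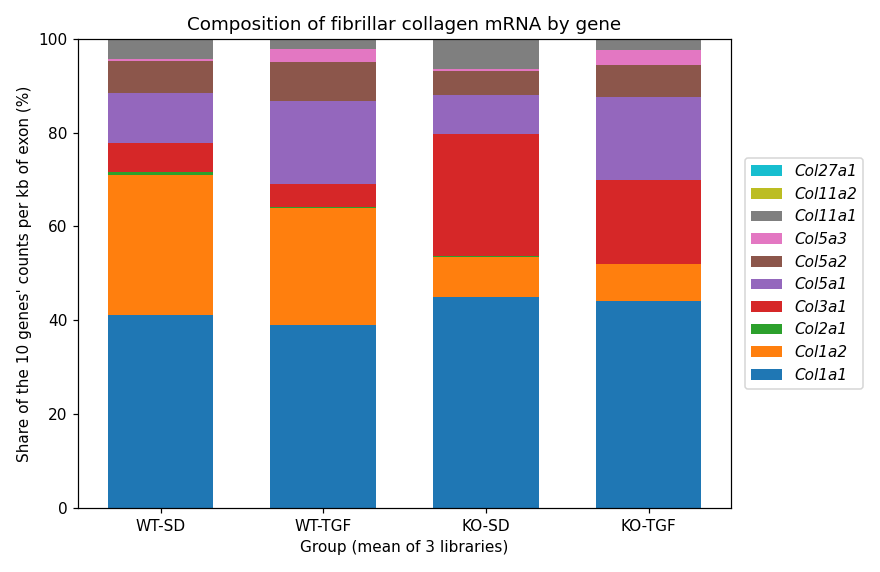
Share of each of the 10 genes in their summed counts per kb of exon (y axis, percent), as the mean of 3 libraries in each of the 4 groups (x axis). The Col1a2 part is 30.0% in WT-SD and 8.49% in KO-SD, the Col3a1 part 6.29% and 26.2%.

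The likeness of other genes to the members was described by the root mean square difference of log2 CPM over the 12 libraries, each gene centered on its mean, over the 11527 genes tested. All libraries share 4 groups, so likeness mostly reflects the group means. Nearest to Col1a1 were Mmp14 (0.10), a membrane-bound protease that cleaves fibrillar collagen, Adam19 (0.11) and Acta2 (0.12), and its nearest member was Col5a2 (0.32). Nearest to Col3a1 were Col6a2 (0.31), a chain of the beaded type VI collagen, Hoxc11 (0.33) and Tenm4 (0.44), while no other member came closer than Col11a1 (0.87). Nearest to Col1a2 was Rin2 (0.097), to Col5a2 Slc1a4 (0.068), to Col5a3 Fxyd5 (0.22), to Col11a1 Olfml2b (0.14) and to Col27a1 Lif (0.21). Col2a1 (nearest Ctsl, 0.14) and Col11a2 (nearest Cyb561d1, 0.097) varied little over the libraries themselves, by 0.37 and 0.20. In no case was the nearest gene another fibrillar collagen, which says little, as the members are few among the 11526 genes compared. By closeness, the nearest member ranked 48 for Col3a1, 54 for Col5a1, 96 for Col5a3, 127 for Col1a1 and 174 for Col27a1. For the others it ranked 245 (Col5a2), 264 (Col1a2), 592 (Col11a1), 2151 (Col2a1) and 7227 (Col11a2). Whether members lie closer together than other genes was not tested.

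The genes that make, process, bind or cleave fibrillar collagen were counted in the same fits. Of 73 listed partners, 63 were tested. In WT, 41 were higher with TGF-β (65.1%, against 36% of all genes tested) and 18 lower (28.6%, against 36.4%). In KO, 36 were higher (57.1%, against 34.9%) and 24 lower (38.1%, near the 39.1% of all genes). In KO-SD, 37 were higher than in WT-SD (58.7%, against 30.9%) and 13 lower (20.6%, against 25.2%). In KO-TGF, 31 were higher than in WT-TGF (49.2%, against 27.2%) and 26 lower (41.3%, against 27.8%), but with scaling by library size alone 26 were higher and 29 lower. Their median log2 fold changes were 0.57, 0.34, 0.20 and 0.12 in that order, beside the medians of all genes given above. Dcn is on both the partner and the fibroblast list.

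Of the chaperones and modifying enzymes of procollagen, 14 of 19 were higher (73.7%) and 5 lower (26.3%) with TGF-β in each genotype. Of all genes tested, 36% were higher and 36.4% lower in WT, and 34.9% and 39.1% in KO. In serum-depleted KO cells, 14 were higher than in WT (73.7%, against 30.9%) and 2 lower (10.5%, against 25.2%). KO-TGF had 14 above WT-TGF (73.7%, against 27.2%) and 4 below it (21.1%, against 27.8%). P4ha1 and P4ha3, subunits of the prolyl hydroxylases that stabilise the triple helix, rose 1.94-fold and 2.88-fold with TGF-β in WT, and P3h2, a prolyl 3-hydroxylase, fell 3.36-fold. The collagen chaperone Serpinh1 (Hsp47) was 1.60-fold higher in KO-SD and 1.58-fold higher in KO-TGF than in WT. Of the lysyl oxidases, which cross-link fibrils, 5 of 5 were higher with TGF-β in each genotype. The shares of all genes tested were 36% in WT and 34.9% in KO. Loxl2 (3.49-fold) and Loxl1 (2.20-fold) led in WT. In KO-SD, Loxl2 was 1.61-fold higher and Loxl1 1.17-fold lower than in WT. There 2 of the 5 were higher than in WT (40%, against 30.9%) and 1 lower (20%, against 25.2%). In KO-TGF, 3 were higher than in WT-TGF (60%, against 27.2%) and 2 lower (40%, against 27.8%).

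Of the procollagen proteinases and their enhancers, 3 of 6 were higher and 3 lower with TGF-β in WT, which shows no direction of the list. These are 50% each, against 36% and 36.4% of all genes tested. Bmp1, the C-proteinase, rose 2.101-fold and Pcolce2, an enhancer of it, 4.21-fold. Its relative Tll1 was 6.87-fold higher in KO-SD than in WT-SD (129 ± 7.75 against 18.9 ± 0.576 CPM). Of the fibril-associated proteins, 9 of 9 were higher in KO-SD than in WT-SD (100%, against 30.9% of all genes tested). Among them were Dcn (6.04-fold), Postn (2.96-fold) and Thbs2 (8.91-fold, though its KO-SD libraries ran from 4.49 to 17.96 CPM). After TGF-β, 5 of the 9 were higher in KO than in WT (55.6%, against 27.2%) and 2 lower (22.2%, against 27.8%). With TGF-β in WT, 7 of the 9 rose (77.8%, against 36% of all genes tested). Col14a1 (5.02-fold) and Dcn (2.73-fold) fell (22.2%, against 36.4%). In KO, 4 rose and 4 fell (44.4% each, against 34.9% and 39.1% of all genes tested).

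Of the receptors, 5 of 9 were higher (55.6%, against 36% of all genes) and 3 lower (33.3%, against 36.4%) with TGF-β in WT. Itga11, the α chain of a receptor for type I collagen, rose 3.26-fold and its partner Itgb1 2.32-fold, while Itga1, which prefers basement membrane collagen, fell 2.76-fold. Ddr2, a receptor tyrosine kinase that fibrillar collagen activates, was 10.7-fold higher in KO-SD (263 ± 3.24 against 24.6 ± 1.56 CPM) and 11.9-fold higher in KO-TGF than in WT, and no member differed by as much. Adgrg1, a receptor of type III collagen, was 3.17-fold lower in KO-SD and 3.27-fold lower in KO-TGF. Itga11 was 2.70-fold under WT in the TGF-β-treated KO cells. Of the 4 collagen-degrading proteases tested, Mmp14 was 2.04-fold higher and Mmp2 1.49-fold lower in serum-depleted KO cells than in WT, and Mmp13 was 3.58-fold under WT in the TGF-β-treated KO cells. In KO-SD, 2 of the 4 were higher and 1 lower than in WT-SD (50% and 25%, against 30.9% and 25.2%). In KO-TGF, 1 was higher and 3 lower than in WT-TGF (25% and 75%, against 27.2% and 27.8%). Of the 11 regulators, 5 were higher and 4 lower with TGF-β in WT (45.5% and 36.4%, near the shares of all genes). Among them Scx, a tendon transcription factor that acts on the type I genes, rose 2.59-fold and Larp6, which binds collagen mRNA, fell 2.21-fold. In serum-depleted cells Larp6 was also 2.29-fold lower in KO.

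**Figure D5:**
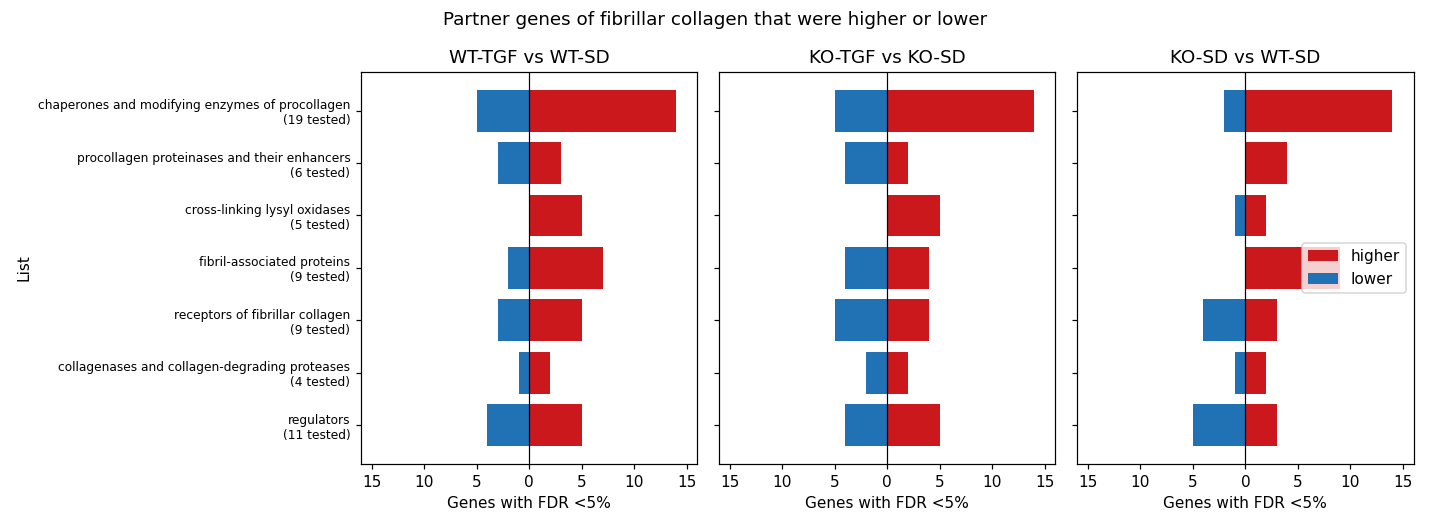
Number of partner genes with FDR <5% that were higher (right of 0) or lower (left of 0) in 3 comparisons, by list (y axis, with the number tested). The lysyl oxidases are all on the higher side with TGF-β in both genotypes, and the fibril-associated proteins are all on the higher side in KO-SD against WT-SD.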

How the data were processed

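RNA-seq was done on 12 libraries of MMC, 3 in each of the 4 groups. The authors made poly(A) libraries, used TopHat to align the single-end reads to mm10, and counted them by strand on RefSeq genes with HTSeq-count. The deposited values are these raw counts, without normalization, and reads with several alignments (11.2% to 11.7% of a library) are not in them. Reads on no gene (10.3% to 15.4%) and on overlapping genes were left out of library sizes.

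Genes with RPKM >1 in at least 1 library were kept (11527 of 25230), with exon lengths from GENCODE vM21, and scaled by TMM. The quasi-likelihood test of edgeR 4.0.16 (R 4.3.3) was applied with p-values adjusted by Benjamini-Hochberg, with 1 mean for each of the 4 groups and 5 contrasts. A gene was called at FDR <5%, and a fold >2 is given separately. Standard errors come from the same fit. Simulated counts of the same size, with few genes changed and those only in WT-TGF, were used to test the procedure. They do not test the scaling where many genes differ, as in these data. Levels per length used exons of transcripts linked to RefSeq. Chain ratios and shares were compared with exact two-sided permutation tests. Libraries of 1 group differed beyond counting noise (chi-square per degree of freedom 1.35 to 5.41), so none was taken for a copy. A count of 3 was the floor of detection, at most 0.161 CPM.

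All 10 members were named in every comparison. For each partner list at most 3 genes were named in each of 3 comparisons (WT-TGF against WT-SD, and KO against WT with SD and with TGF-β), from those with the largest absolute log2 fold change past FDR <5%, and for each member its nearest gene (the 3 nearest for Col1a1 and Col3a1). The nearest gene of Col5a1 is not reported here. Markers were named as listed. The members, lists and tests were chosen with earlier results of these data known. Alternatives were library size in place of TMM, DESeq2 1.42.0, the likelihood ratio test of edgeR, no filter or one of CPM >1 in 3 or more libraries, fitting only the groups compared, blocking on the replicate number and leaving out each library. TMM was first computed over all genes and, after member calls had been seen, over the genes kept. The former is an added alternative, as are all GENCODE exons as the length. Promoter sequences are from RefSeq on GRCm38.p6.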

Additional observations from a re-analysis of the deposited data

Results flagged for a closer look

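The response to TGF-β differed between the genotypes for 9 of the 10 fibrillar collagen genes, in a test of the difference itself (the interaction in the edgeR quasi-likelihood test, Benjamini-Hochberg FDR <5%). Of all genes tested, 8.68% had a higher and 16.6% a lower log2 response in KO. The log2 response in KO minus that in WT was -0.76 for Col11a1 (0.03 in WT and -0.73 in KO, adjusted p = 9.21e-19) and -0.46 for Col3a1 (0.60 and 0.14, adjusted p = 2.83e-10). For Col2a1 it was -0.49, and the gene rose in WT and fell in KO. It was -0.71 for Col27a1, -0.23 for Col1a1 and -0.15 for Col5a2, all of which rose in both genotypes. It was 0.33 for Col5a3 and 0.11 for Col5a1, which rose more in KO, and 0.45 for Col11a2, which fell in WT. Col27a1 entered the test only through its WT-TGF libraries.

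The difference of Col11a2 (adjusted p = 0.0304) passed the threshold in 12 of 19 alternatives. It was lost in DESeq2 (adjusted p = 0.0565) and without WT-SD replicate 2 (0.0570) or 3 (0.0558), WT-TGF replicate 1 (0.110) or 3 (0.0529), KO-SD replicate 1 (0.0764) or KO-TGF replicate 2 (0.0653). That of Col27a1 was lost without KO-SD replicate 3 (log2 difference -0.45, adjusted p = 0.0795), and that of Col5a1 with scaling by library size alone (0.069, adjusted p = 0.0912). The other 6 passed in all 19 alternatives.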

How the results depend on the processing

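Of 988 recomputed log2 fold changes of members, 952 kept their direction and their side of FDR <5%, and the other 36 fell on 11 of the 50 changes. Scaling by library size alone put 2 members on the lower side with TGF-β in WT (1 before) and turned Col11a1 in WT to -0.12, Col3a1 in KO to -0.062 and Col11a2 in KO to -0.077 (all TGF-β against SD). The Col11a2 difference between KO-TGF and WT-TGF, near 0, turned to 0.016 in DESeq2, 0.0062 with the CPM filter, 0.011 with no filter, 0.0018 with the replicate block and 0.011 with TMM over all genes. It ran from -0.10 to 0.11 without each library. Without each library the members lower with TGF-β in WT were 0 to 1 (0 without WT-TGF replicate 1), and the log2 difference of Col5a1 to Col5a2 between KO-SD and WT-SD ran from -0.018 to 0.00098. TMM over all genes, the scaling used first, put Col11a1 in WT (TGF-β against SD 0.065, adjusted p = 0.00714) and Col27a1 in KO-SD (0.38, adjusted p = 0.0489) past the threshold, so that 9 and 7 members were higher (8 and 6 with TMM over the genes kept). Deviations of same-numbered libraries correlated at -0.026 to 0.076 (median 0.022, 18 pairs). Those of libraries with different numbers correlated at -0.091 to 0.043 (median -0.0091, 36 pairs). The ranges overlap, and a weak pairing by replicate number cannot be told from none. The replicate block left each count of members within 1 of its value and put the Col1a2 interaction (-0.10, adjusted p = 0.0194) and Col27a1 in KO-SD (0.35, adjusted p = 0.0487) past the threshold. The fit of only the groups compared was not run for the interaction. With 3 libraries a group, permutation tests of ratios and shares cannot pass 0.05.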

Other observations

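The responses of the partner genes to TGF-β were also compared between the genotypes. Of the 63 tested, 27 had a lower log2 response in KO than in WT and 6 a higher one, against 16.6% and 8.68% of all genes tested. Tll1, a relative of the procollagen C-proteinase, was at 18.9 ± 0.576 CPM with SD in WT (3 libraries, ± SD) and at 35.0 ± 1.49 CPM after TGF-β, but at 129 ± 7.75 CPM in KO-SD and at 49.4 ± 1.65 CPM after TGF-β, a difference in log2 response of -2.28. Mmp13, a collagenase, had 17.98 ± 1.46 CPM in WT-SD and 12.1 ± 1.09 CPM after TGF-β, but 29.6 ± 4.19 CPM in KO-SD and 3.38 ± 0.370 CPM after TGF-β, a difference of -2.56. Fmod, a fibril-binding proteoglycan, had a difference of -1.69, and Col12a1, a fibril-associated collagen named here after its values were seen, one of -1.63.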
